A study of Mus musculus with 16 samples.

Results

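The 4 RRBS libraries of 2 old-passage mESC clones that overexpressed the S33Y mutant of β-catenin, OP-S33Y #1 and OP-S33Y #2, were compared with the 2 libraries of old-passage E14 mESCs without the mutant, OP-mESC. These 6 libraries were chosen by their titles out of 16 in the series, which also holds young-passage E14 mESCs (YP-mESC) and mESCs and embryoid bodies with control or β-catenin shRNAs. E14 is a mouse embryonic stem cell line of the 129/Ola strain, and all 6 cultures were grown in serum with LIF. The S33Y clones were made in young-passage E14 cells and then passaged under the conditions that gave OP-mESC. The question was which methylation that OP-mESC lacked was found in both clones, and where a single clone had it. Each clone is 1 line, with 2 replicate libraries. The study calls the replicates of each line biological, and nothing in the labels says whether replicates came from separate cultures. The effect of the transgene, of deriving a clone and of each culture's own history therefore cannot be told apart, and p-values measure only the spread between these libraries.

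β-catenin is the transcriptional effector of canonical Wnt signalling, and a destruction complex marks it for degradation by phosphorylating it at its amino terminus. The S33Y change removes a phosphorylation site, so that the protein is stable. Imprinting control regions (ICRs) are CpG-rich sequences that carry DNA methylation on the allele from a single parent and direct the expression of imprinted genes from the other or the same allele. Since an intact imprint leaves the other allele unmethylated, an ICR is usually found at an intermediate level. DNMT1 copies the marks at each division, and ZFP57, which binds the methylated motif TGCCGC, protects them together with TRIM28. Cultured mESCs are known to lose ICR methylation over time. In RRBS, a restriction digest selects CpG-rich fragments, and bisulfite treatment changes cytosine to uracil unless it is methylated. The methylation level of a CpG is the percentage of its reads that still carry a cytosine.

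The sequences below carry the main results and are given on the plus strand of mm9 5′ to 3′, with the CpGs that had at least 10 reads in all 6 libraries in capitals. The first 4 lie in loci that were higher in both clones, the following pair in loci that were higher in a single clone, and the last in a locus that was lower in both. Parts of the windows that the annotation gives as UTR are not printed.
Plagl1, intron and promoter within the ICR, chr10:12810846-12810995: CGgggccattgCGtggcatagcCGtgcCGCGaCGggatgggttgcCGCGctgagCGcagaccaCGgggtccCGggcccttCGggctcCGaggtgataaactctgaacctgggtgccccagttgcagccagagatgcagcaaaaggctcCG
Kcnq1ot1 ICR, intron, chr7:150481280-150481316: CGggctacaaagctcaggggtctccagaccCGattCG
Crlf2, coding exon, chr5:109985053-109985116: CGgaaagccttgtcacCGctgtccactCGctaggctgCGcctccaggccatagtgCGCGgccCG
Sohlh2, intron, chr3:54986260-54986517: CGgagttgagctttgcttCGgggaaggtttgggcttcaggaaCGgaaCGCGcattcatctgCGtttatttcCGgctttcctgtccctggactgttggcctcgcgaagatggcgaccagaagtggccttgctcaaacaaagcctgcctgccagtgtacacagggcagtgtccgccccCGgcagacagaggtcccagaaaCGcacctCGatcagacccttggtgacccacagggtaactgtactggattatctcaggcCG
Abca16, intron, higher in OP-S33Y #1 only, chr7:127647958-127648139: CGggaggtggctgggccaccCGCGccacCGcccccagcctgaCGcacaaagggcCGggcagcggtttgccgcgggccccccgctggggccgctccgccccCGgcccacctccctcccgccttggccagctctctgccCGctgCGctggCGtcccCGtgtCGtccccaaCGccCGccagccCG
Gnas ICR, coding exon, higher in OP-S33Y #2 only, chr2:174124583-174124616: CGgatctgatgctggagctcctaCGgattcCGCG
Repin1, coding exon, lower in both clones, chr6:48547517-48547588: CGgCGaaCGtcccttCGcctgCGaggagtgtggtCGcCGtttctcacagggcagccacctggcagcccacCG
The 150 bases at Plagl1 held 14 CpGs, all of them measured, and 2 copies of TGCCGC or its reverse complement GCGGCA. The motif had 1 copy in the 182 bases at Abca16 and none in the other 5 sequences printed. In 300 bases around their centres, 24.6% of all windows tested held the motif on either strand, against 17 of the 106 windows that were higher in both clones (16%).

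The 6 libraries had 18872150 to 32239876 reads on CpGs and covered 413266 to 840548 CpGs. OP-mESC replicate 2 covered the fewest, and the requirement of at least 10 reads in all 6 libraries left 373932 CpGs, with a median of 28 to 53 reads per library. On the mitochondrial genome, which is taken as unmethylated, 0.251% to 0.449% of the reads on CpGs were methylated, the highest 2 values in OP-S33Y #2. The promoters that check the cell type were low where they were covered. Within 1 kb of the start of Pou5f1, the gene of the pluripotency factor OCT4, 6 common CpGs had 0.0% to 1.11% in the 6 libraries. At Zfp42, another pluripotency gene, 2 CpGs had 0.0% to 2.63%. Of the other fixed markers, Nanog, Dppa2, Dppa5a, Tdgf1 and Elf5 had no common CpG and Dppa4 had 1. The germline promoters Dazl and Sycp3, taken as methylated in mESCs when the markers were chosen, had 2.43% to 8.33% and 15.9% to 31.4% over 12 CpGs each, which goes against that choice.

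Both clones had more methylation than OP-mESC over the common CpGs, and OP-S33Y #1 had more than OP-S33Y #2. The mean level was 24.9% in both libraries of OP-S33Y #1, 23.8% and 23.6% in OP-S33Y #2, and 21.2% in both OP-mESC libraries. All 4 clone libraries were above both OP-mESC libraries. The difference was 3.69 percentage points for OP-S33Y #1, 2.48 for OP-S33Y #2 and 3.08 for the 4 clone libraries together. Weighted by reads instead of by CpG, the difference of the 4 clone libraries was 5.18 points. With 4 libraries against 2, an exact two-sided permutation test gave p = 0.0667, the smallest that the 15 arrangements allow. This test exchanges single libraries, though those of a clone are replicates of 1 line, so it does not measure the spread between lines. OP-S33Y #1 was 1.21 points above OP-S33Y #2, against SDs between replicates of 0.022 and 0.18. The direction was the same on every chromosome. The lowest clone library exceeded the highest OP-mESC library on all of them, by 1.89 points on chromosome 17 to 3.11 points on chromosome X. The differences ranged from 3.13 points on chromosome 19 to 4.16 on chromosome 10 for OP-S33Y #1, and from 2.05 on chromosome 17 to 3.40 on chromosome X for OP-S33Y #2.

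The size of the difference depended on the level that a CpG had in YP-mESC, whose libraries did not enter the comparison. At the 231755 CpGs under 10% in YP-mESC, the clones exceeded OP-mESC by 0.22 points (OP-S33Y #1) and 0.39 points (OP-S33Y #2). The difference was largest at the 16033 CpGs with 50 to 70% in YP-mESC, with 14.8 and 8.25 points. There the libraries of OP-S33Y #1 had 62.9% and 62.6%, those of OP-S33Y #2 56.8% and 55.6%, and both OP-mESC libraries 47.9%. At the 23399 CpGs with 90% or more in YP-mESC, it was 6.48 and 4.40 points. OP-S33Y #1 was thus further above OP-mESC than OP-S33Y #2 in all classes except the lowest. YP-mESC replicate 2 has no values on chromosome 13, so that this chromosome is left out of the classes and YP-mESC values of its windows, such as Pde4d, rest on replicate 1. Over all 354857 CpGs that both YP-mESC libraries covered, the means were 24.7% in OP-S33Y #1, 23.5% in OP-S33Y #2, 21.0% in OP-mESC and 24.3% in YP-mESC.

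**Figure D1:**
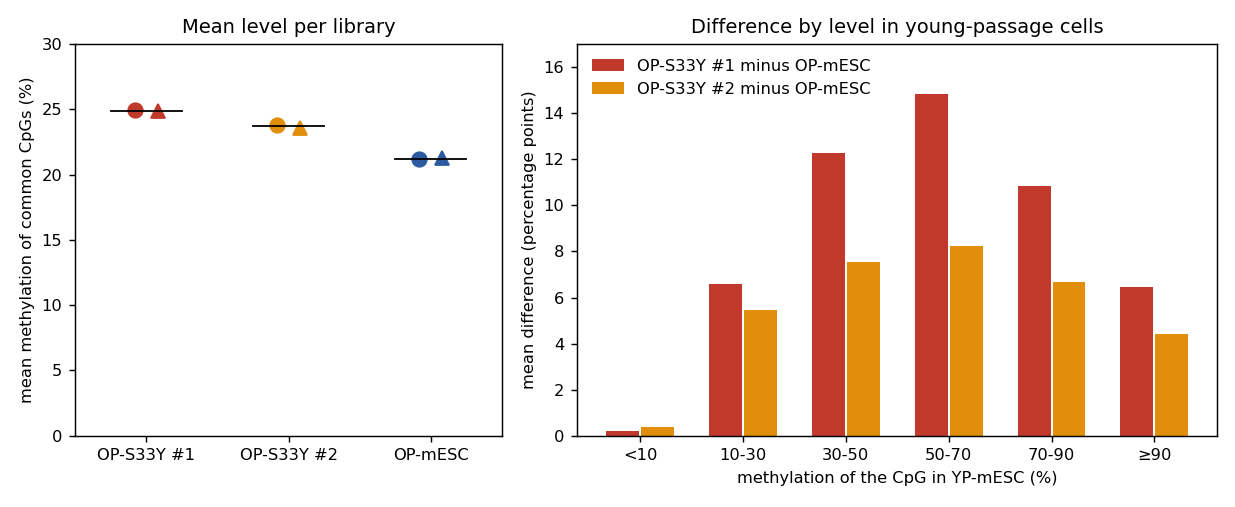
Left, mean methylation (%) of the 373932 common CpGs in each library, with a line at the mean of the 2 libraries of a group (circles, replicate 1; triangles, replicate 2). Right, mean difference to OP-mESC (percentage points) of OP-S33Y #1 (red) and OP-S33Y #2 (orange) in 6 classes of CpGs by their mean level in YP-mESC; the bars are highest at 50 to 70%, where they reach 14.8 and 8.25 points.

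Single CpGs were called when a binomial test of their reads with shared overdispersion gave an adjusted p under 0.05 and the group means differed by more than 25 points. Both clones were compared with the same 2 OP-mESC libraries, so that a low value there by chance enters both comparisons. In OP-S33Y #1, 8760 CpGs (2.34% of those tested) were higher than in OP-mESC, and in OP-S33Y #2, 2232 CpGs (0.597%). Lower than in OP-mESC were 215 CpGs in OP-S33Y #1 (0.0575%) and 262 in OP-S33Y #2 (0.0701%). There were 1569 CpGs higher in both clones (0.42%) and 103 lower in both (0.0275%). The count of 1569 depended on the number of libraries, and was 599 without OP-S33Y #2 replicate 1, 922 without OP-S33Y #2 replicate 2, 995 without OP-S33Y #1 replicate 2, 1006 without OP-mESC replicate 1 and 909 without OP-mESC replicate 2. The clones themselves differed at fewer CpGs. OP-S33Y #1 was higher than OP-S33Y #2 at 1363 CpGs and lower at 84. By the stricter definition used for a single clone, in which the clone was called against OP-mESC, the other was not, and the clones were called different, 1110 CpGs were higher only in OP-S33Y #1 (0.297%) and 24 only in OP-S33Y #2 (0.00642%). A further 6081 CpGs were called in OP-S33Y #1 and not in OP-S33Y #2 without a called difference between the clones, and these belong to neither class. The 1480 CpGs higher in both clones with YP-mESC reads had a mean of 67.6% in OP-S33Y #1, 65.2% in OP-S33Y #2, 25.5% in OP-mESC and 59.4% in YP-mESC. YP-mESC exceeded OP-mESC by more than 25 points at 71.7% of them, against 3.29% of all CpGs. These CpGs were called against the same OP-mESC libraries, so the share is in part built in and is given as a description. Of all 354857 CpGs compared, 231755 were under 10% in YP-mESC and could not show such a difference.

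Loci were then read as windows, runs of at least 5 common CpGs no more than 200 bp apart and at most 1000 bp long, with the 25-point threshold and edgeR's quasi-likelihood test with Benjamini-Hochberg adjustment. Of 21062 windows, 358 were higher in OP-S33Y #1 (1.7%) and 130 in OP-S33Y #2 (0.617%). Fewer were lower, 5 in OP-S33Y #1 (0.0237%) and 14 in OP-S33Y #2 (0.0665%), with differences down to -44.5 and -60.0 points. In both clones, 106 windows on 19 chromosomes were higher (0.503%) and 4 were lower (0.019%). All windows past 25 points also passed the test, so that the calls followed the size of the difference. In the 106 windows the median level was 65.5% in OP-S33Y #1, 59.6% in OP-S33Y #2 and 24.3% in OP-mESC, and the median difference was 38.2 and 30.8 points. Over all windows the medians of the difference were 0.24 and 0.35 points. OP-S33Y #1 was the higher clone in 85 of the 106 windows. The clones differed from each other at an adjusted p under 0.05 in 11 of them and by more than 25 points as well in 2, both with OP-S33Y #1 higher.

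The position and base composition of the 106 windows are given beside those of all windows as a description. They held a median of 6 CpGs, against 9 in all windows, and 43 of them held the minimum of 5. A promoter was overlapped by 11 (10.4%), against 40.1% of all windows, and 46 were intergenic (43.4%), against 14%. Their 300 central bases had a median of 14 CpGs and 56.3% G and C, against 24 CpGs and 65.3% in all windows. Only 21 of the 106 were under 10% in OP-mESC (19.8%), against 73.7% of all windows. A window with little methylation in every culture cannot be called, so these shares describe where a difference could be seen as well as where it was. The median level of the 106 windows was 55.0% in YP-mESC, and YP-mESC exceeded OP-mESC by more than 25 points in 64 of them (60.4%, against 1.62% of all windows). In 4 windows both clones exceeded YP-mESC by more than 25 points. In mESCs with the control shRNA, 105 of the windows had a value, with a median of 64.0%. These comparisons with YP-mESC also use OP-mESC and are given as a description.

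The 12 windows with the largest smaller-of-the-clones difference were led by the imprinted gene Plagl1, which encodes a zinc finger transcription factor. At its window (chr10:12810658-12810995, promoter, UTR and intron, 26 CpGs), the libraries had 93.5% and 94.4% in OP-S33Y #1, 90.8% and 90.8% in OP-S33Y #2, and 3.43% and 6.15% in OP-mESC. Clone and OP-mESC libraries were at opposite ends of the scale there, with differences of 89.2 and 86.0 points (adjusted p = 3.66e-162 and 1.88e-146). The YP-mESC libraries had 76.0% and 56.9%, below both clones, and the mESCs with the control shRNA had 95.3% and 95.9%.

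A pair of the windows lay in Grb10, the gene of an adaptor that dampens insulin and IGF receptor signalling, which is imprinted. At chr11:11926188-11926348 (promoter, UTR and intron, 20 CpGs) OP-S33Y #1 had 48.4% and 42.6% and OP-S33Y #2 had 52.8% and 49.1%, against 0.76% and 1.16% in OP-mESC. The neighbouring window, chr11:11925850-11925897 (UTR, 8 CpGs), had 53.4%, 37.5%, 46.7% and 49.4% in the clone libraries and 0.57% and 1.84% in OP-mESC. Both were near an intermediate level in both clones and near 0 in OP-mESC.

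Of the other windows among the 12, 7 overlapped genes outside the listed ICRs. At Plce1, a phospholipase C gene (chr19:38599044-38599104, coding exon, 5 CpGs), the clone libraries had 55.5%, 72.0%, 68.0% and 65.5%, and OP-mESC had 6.18% and 2.51%. Crlf2, which encodes a subunit of the TSLP receptor (chr5:109985053-109985116, coding exon, 7 CpGs), had 68.8%, 62.1%, 56.7% and 62.3% against 5.68% and 6.03%. At a coding exon of Nefm, the gene of the medium neurofilament chain (chr14:68742576-68742607, 5 CpGs), OP-S33Y #1 had 77.4% and 71.7%, OP-S33Y #2 51.5% and 52.3%, and OP-mESC 0.0% and 15.0%. Among the 12, only Nefm had an adjusted p under 0.05 between the clones as well, with 22.6 points (adjusted p = 0.00113), under the 25-point threshold. Snap25, a SNARE protein of synaptic vesicle release (chr2:136539154-136539325, promoter and UTR, 5 CpGs), showed the closest clone means of the 12, 49.7% and 49.95%, against 4.66% in OP-mESC. Eml2, a microtubule-associated protein (chr7:19761911-19761997, coding exon and UTR), had clone means of 63.9% and 54.8% against 7.21%. Palm2 of the paralemmin family (chr4:57723007-57723155) had 75.4% and 71.3% against 26.4%, and Pde4d, a cAMP phosphodiesterase (chr13:110415821-110415875, intron), had 64.1% and 52.3% against 8.30%.

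The remaining pair of the 12 were intergenic. The window at chr3:6300290-6300336 (5 CpGs, 320130 bp from the nearest coding start) had 89.7% and 90% in OP-S33Y #1, 81.1% and 81.1% in OP-S33Y #2 and 20% and 22.2% in OP-mESC. Its YP-mESC libraries had 36.3% and 40%, so both clones were above YP-mESC as well. The end of its sequence, with all but its first CpG, is identical to the start of the window at chr10:35030323-35030347, described below. Reads at both windows may therefore have been placed with uncertainty. On chromosome 18, a window 93855 bp from the start of Zfp438 had clone means of 80.3% and 69.99% against 25%. Adjusted p-values for the 12 windows were between 3.66e-162 and 6.67e-17 in OP-S33Y #1 and between 1.88e-146 and 1.64e-11 in OP-S33Y #2. The summed reads behind a window and library were as few as 55 at chr3:6300290-6300336, near the minimum of 10 per CpG.

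**Figure D2:**
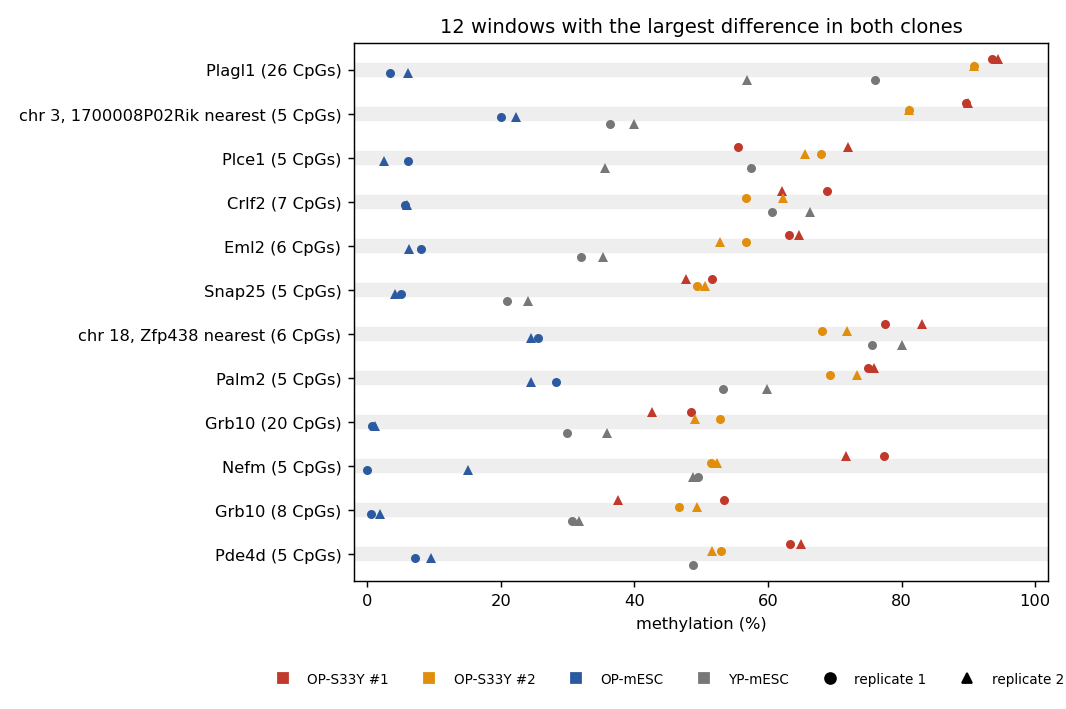
Methylation (%) of the 12 windows with the largest difference in both clones, each on its own line with its gene (or chromosome and nearest coding gene) and its CpGs; points are single libraries of OP-S33Y #1 (red), OP-S33Y #2 (orange), OP-mESC (blue) and YP-mESC (grey), circles replicate 1 and triangles replicate 2. In every window all 4 clone libraries lie to the right of both OP-mESC libraries.

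The study's region rule was read as at least 10 CpGs less than 2 kb apart, each more than 25 points higher in both clones. The methods of the study do not say whether each CpG must pass 25%. By this reading, 9 regions were higher in both clones and 1 was lower. No test goes with this rule, since it is built on the difference. The regions with the most changed CpGs were Grb10 and B3galtl with 27 each and Plagl1 with 26, and all common CpGs of these 3 regions had changed. B3galtl, the gene of a glycosyltransferase (chr5:150480820-150481123, coding exon, UTR and intron), had 45.5% and 42.2% in OP-S33Y #1, 50.6% and 38.9% in OP-S33Y #2 and 2.78% and 7.58% in OP-mESC. YP-mESC had 15.7% and 24.3% there, below all 4 clone libraries. The others were Snap25, Sohlh2, Crlf2, Nefm, Ildr1 and a region in the promoter of a U1 small nuclear RNA gene on chromosome 7, which has near copies elsewhere in the genome, so that reads may have been placed with uncertainty. At Sohlh2, a transcription factor gene of early germ cells (chr3:54986260-54986517, intron), 11 of 11 CpGs had changed. Its libraries had 87.4% and 86.9% in OP-S33Y #1, 71.1% and 67.1% in OP-S33Y #2 and 33.2% and 28.6% in OP-mESC.

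Of the 20 ICRs with coordinates from the study, 11 had at least 2 CpGs common to the 6 libraries. Of these 11, 4 were higher in both clones, Plagl1, Grb10, Kcnq1ot1 and Impact, against 106 of all 21062 windows (0.503%). Plagl1, Grb10 and Impact are also among the loci that the study chose as lower in these OP-mESC libraries. Their calls are thus in part built in. None of the 11 was lower in both clones, by edgeR or by limma, and none was at an unadjusted p under 0.05 with both differences negative. One, Gnas, was higher only in OP-S33Y #2. The mean over the 11 ICRs was 53.1% ± 0.80 (SD, n = 2) in OP-S33Y #1, 60.9% ± 1.37 in OP-S33Y #2 and 29.2% ± 0.55 in OP-mESC, differences of 23.97 and 31.7 points. The mean of the same ICRs in YP-mESC was 45.5%. The order of the clones was opposite to that over all CpGs, where OP-S33Y #1 was higher. This order rested on Gnas and Kcnq1ot1, since over the 9 ICRs without them, a set chosen after their values were seen, the differences were 24.2 and 23.6 points.

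At Plagl1 the ICR level equalled that of its window, since the same 26 CpGs were measured. Each of these CpGs was more than 25 points higher in both clones, and the single CpGs ranged from 78.5% to 100.0% in OP-S33Y #1, from 77.9% to 98.4% in OP-S33Y #2 and from 0.0% to 11.4% in OP-mESC. The clones were thus almost fully methylated at an ICR where a single methylated allele is the usual state. Grb10 had 49.9% and 41.2%, 51.1% and 49.2% in the clone libraries and 0.70% and 1.36% in OP-mESC over 28 CpGs, of which 27 were more than 25 points higher in both clones (adjusted p = 2.58e-82 and 2.96e-90). In this case both clones had intermediate levels, and YP-mESC was between them and OP-mESC with 30.1% and 34.7%.

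**Figure D3:**
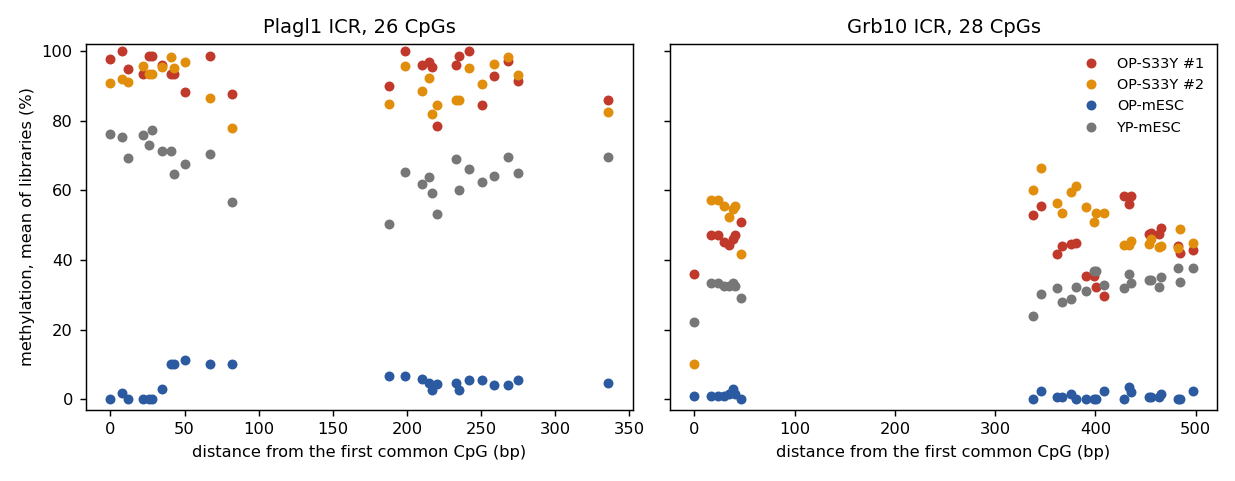
Methylation (%, mean of the libraries of a group) of single common CpGs against their distance (bp) from the first common CpG of the Plagl1 ICR (left, 26 CpGs) and the Grb10 ICR (right, 28 CpGs), in OP-S33Y #1 (red), OP-S33Y #2 (orange), OP-mESC (blue) and YP-mESC (grey). OP-mESC stays at or below 11.4% at Plagl1 and 3.49% at Grb10, and the clones lie above it at all CpGs shown.

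At Kcnq1ot1, a long non-coding RNA that silences its imprinted neighbours, 3 CpGs of the ICR were common. The libraries of OP-S33Y #1 had 54.5% and 38.5%, those of OP-S33Y #2 97.9% and 91.3%, and OP-mESC 0.0% and 1.42%. Both clones were higher than OP-mESC, by 45.8 and 93.9 points (adjusted p = 1.19e-17 and 1.96e-48), and they also differed from each other by 48.1 points (adjusted p = 1.05e-13), with OP-S33Y #2 the higher. The YP-mESC libraries had 46.6% and 53.5%, close to the values of OP-S33Y #1. At Impact, the gene of a translational regulator, the 4 common CpGs had 33.9% and 35.5% in OP-S33Y #1, 30.4% and 27.3% in OP-S33Y #2, and 0.0% in both OP-mESC libraries (adjusted p = 4.63e-14 and 3.06e-11). The fewest reads summed over these CpGs in a library were 66 at Kcnq1ot1 and 72 at Impact.

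Gnas encodes the stimulatory G protein α subunit and related imprinted transcripts. Its ICR had 51.3% and 41.6% in OP-S33Y #1 and 53.6% and 38.6% in OP-mESC, which overlapped, and 86.6% and 91.0% in OP-S33Y #2. The difference to OP-mESC was 0.33 points in OP-S33Y #1 (adjusted p = 0.878) and 42.7 in OP-S33Y #2 (7.09e-14), and the clones differed by 42.4 points (2.08e-12). YP-mESC had 40.2% and 38.1%, so the value of OP-S33Y #2 was above those of all other groups named here. These values rest on 5 CpGs.

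The other 6 ICRs did not pass both criteria in either clone. Mest, which encodes a hydrolase-like protein, had 36.6% and 46.2%, 47.6% and 52.0% in the clone libraries and 23.6% and 28.5% in OP-mESC. All 4 clone libraries were above OP-mESC, and the differences of 15.4 and 23.7 points fell short of 25. At Meg3, the 1 ICR of the 11 that is methylated on the paternal allele, the clone libraries had 47.1%, 52.1%, 40.4% and 43.2% and OP-mESC had 22.8% and 37.3%. Its differences of 19.5 and 11.8 points had adjusted p-values of 0.0166 and 0.374. At Peg3 and Snrpn the libraries of both clones overlapped those of OP-mESC. At Commd1 those of OP-S33Y #1 did, while OP-S33Y #2, with 43.2% and 41.8%, was above OP-mESC, with 40.5% and 32.7%. The differences at Peg3, Snrpn and Commd1 were 2.23 to 8.84 points, with adjusted p-values (edgeR) from 0.248 to 0.946. Trappc9 was methylated at 94.9% to 100.0% in all 6 libraries.

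**Figure D4:**
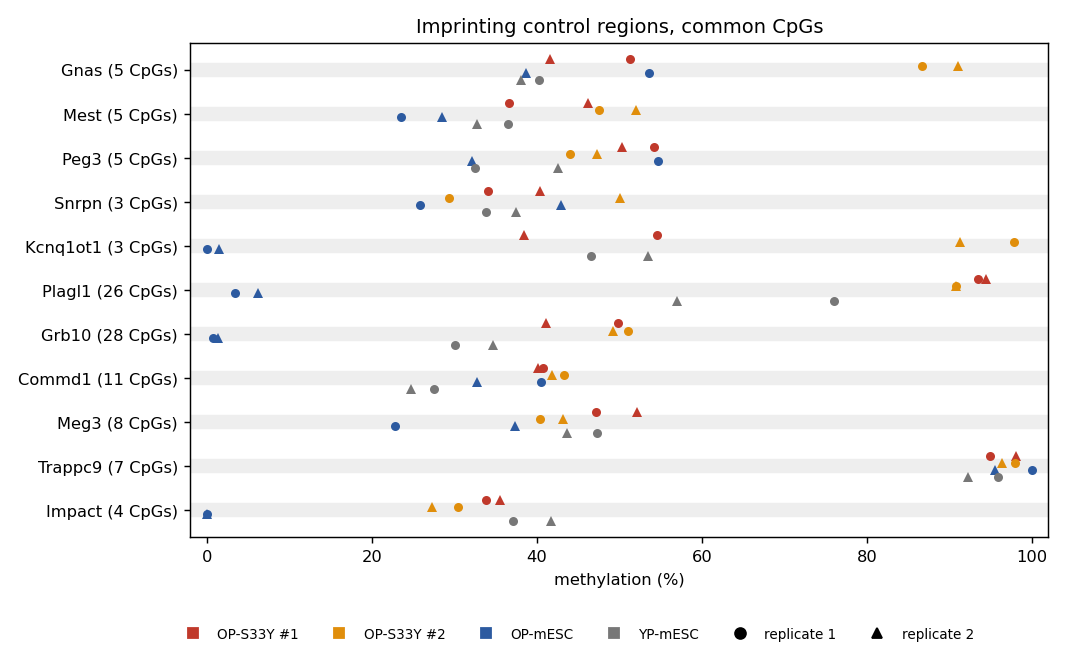
Methylation (%) of the 11 ICRs with at least 2 CpGs common to the 6 libraries, one line per ICR with its number of common CpGs; points are single libraries of OP-S33Y #1 (red), OP-S33Y #2 (orange), OP-mESC (blue) and YP-mESC (grey), circles replicate 1 and triangles replicate 2. At Plagl1, Grb10, Kcnq1ot1 and Impact both OP-mESC libraries lie at or below 6.15% and all clone libraries at or above 27.3%, and at Gnas only OP-S33Y #2 stands apart.

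The coverage of OP-mESC replicate 2 kept further ICRs out of this comparison. Over the CpGs of the other 5 libraries, with OP-mESC replicate 1 alone as the reference and 29251 windows in the fit, 5 of 14 ICRs were called higher in both clones, the additional one being H13. Mest and Meg3 also changed with the loss of this library. Mest was then called in OP-S33Y #2 (26.2 points) and Meg3 in OP-S33Y #1 (26.8 points), while their other differences were 17.8 and 19 points. H13, the gene of the signal peptide peptidase, had 37.9% and 55.3% in OP-S33Y #1, 33.5% and 26.4% in OP-S33Y #2 and 0.30% in OP-mESC over 13 CpGs. Gpr1, a chemerin receptor gene, went the opposite way to Gnas. Its 9 CpGs had 30.1% and 44.1% in OP-S33Y #1, 0.20% and 0.29% in OP-S33Y #2 and 0.0% in OP-mESC, and YP-mESC had 44.4% and 27.7%. Gpr1 was thus higher only in OP-S33Y #1, by 37.1 points against 0.25 in OP-S33Y #2. Herc3, a ubiquitin ligase gene, had 47.6%, 40%, 57.4% and 47.8% in the clone libraries and 22.6% in OP-mESC. Only the difference in OP-S33Y #2 was over 25 points there, and the clones were not called different. These values take it that the single OP-mESC library varies as the replicates of the clones do. Even in these 5 libraries, Nnat had 1 common CpG, and Peg10, Inpp5f, H19, Rasgrf1 and Igf2r had none.

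Among the windows common to the 6 libraries, 10 were higher only in OP-S33Y #1 (0.0475%) and 0 only in OP-S33Y #2 (0.0%). The count for OP-S33Y #2 was also 0 at unadjusted p-values under 0.05 and with limma, and that for OP-S33Y #1 was 16 without OP-S33Y #1 replicate 1. In 242 further windows OP-S33Y #1 was called against OP-mESC and OP-S33Y #2 was not, but the clones were not called different, and the reverse held in 24. In these 242 windows the median difference was 28.5 points in OP-S33Y #1 and 16.8 in OP-S33Y #2, on either side of the threshold.

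Among these 10, the window with the largest difference between the clones was intergenic, 6833 bp from the start of Lyz2, the macrophage lysozyme gene (chr10:116712454-116712635, 5 CpGs). It had 82.2% and 77.9% in OP-S33Y #1, 39.6% and 25.6% in OP-S33Y #2 and 44.5% and 27.6% in OP-mESC. OP-S33Y #2 and OP-mESC overlapped, and the clones differed by 47.4 points (adjusted p = 1.54e-13). At the start of Sohlh2 (chr3:54985912-54985999, promoter, coding exon and UTR, 10 CpGs) the libraries had 64.7% and 55.1%, 25.3% and 29.9%, and 27.3% and 19.7% in the same order. A neighbouring Sohlh2 window in the intron was the one higher in both clones that is described above, so the 2 windows of this gene fell into different classes. At Abca16, an ABC transporter gene (chr7:127647958-127648139, intron, 15 CpGs), they had 53.0% and 46.3%, 19% and 22.8%, and 14.8% and 10.8%. Both OP-S33Y #2 libraries were thus above both OP-mESC libraries at Abca16, by 8.11 points in the means (edgeR, adjusted p = 0.0649).

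In some of the other windows of this class OP-S33Y #2 was above OP-mESC too. At L3mbtl1, a gene of a chromatin compactor (chr2:162773897-162773953, coding exon and UTR, 6 CpGs), OP-S33Y #1 had 60.2% and 64.6%, OP-S33Y #2 38.6% and 31.7%, and OP-mESC 19.95% and 14.6%. Its difference of 17.9 points in OP-S33Y #2 had an adjusted p of 4.28e-04 and was not called for its size alone. In the intergenic window at chr10:35030323-35030347 OP-S33Y #2 was 21.2 points above OP-mESC (adjusted p = 0.0479). Most of this window is identical to part of the one at chr3:6300290-6300336, so its reads may have been placed with uncertainty. At chr9:4260437-4260482 the difference was 10.4 points (adjusted p = 0.0824), and the libraries of OP-S33Y #2 (26.2% and 39.0%) and OP-mESC (26.8% and 17.6%) overlapped. At Fgfr2, a fibroblast growth factor receptor gene (chr7:138441800-138441882, intron, 8 CpGs), and Bai2, an adhesion G protein-coupled receptor gene (chr4:129684883-129684969, coding exon, 8 CpGs), OP-S33Y #2 overlapped OP-mESC. The means were 84.3%, 58.2% and 54.9% at Fgfr2 and 52.9%, 26.8% and 27.3% at Bai2 in OP-S33Y #1, OP-S33Y #2 and OP-mESC. Calls at these windows changed when single libraries were left out. The difference between the clones fell below 25 points at chr10:35030323-35030347 without OP-S33Y #1 replicate 2 (23.1 points) or OP-S33Y #2 replicate 1 (18.1), and at Fgfr2 without OP-S33Y #1 replicate 2 (23.5) or OP-S33Y #2 replicate 2 (18.9). It did so at Bai2 without OP-S33Y #1 replicate 1 (23.99) or OP-S33Y #2 replicate 1 (24.3), and at L3mbtl1 without OP-S33Y #2 replicate 2 (23.8). L3mbtl1 also lost its call without OP-S33Y #1 replicate 2, and Fgfr2 and Bai2 lost theirs without OP-mESC replicate 1, at differences between the clones of 25.1, 26.1 and 26.0 points. Over all 10 windows the median was 63.5% in OP-S33Y #1, 33.9% in OP-S33Y #2 and 24.6% in OP-mESC, with 46.9% in YP-mESC. YP-mESC exceeded OP-mESC by more than 25 points in 5 of them, against 1.62% of all windows. The windows were called against the same OP-mESC libraries, so this count is in part built in.

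**Figure D5:**
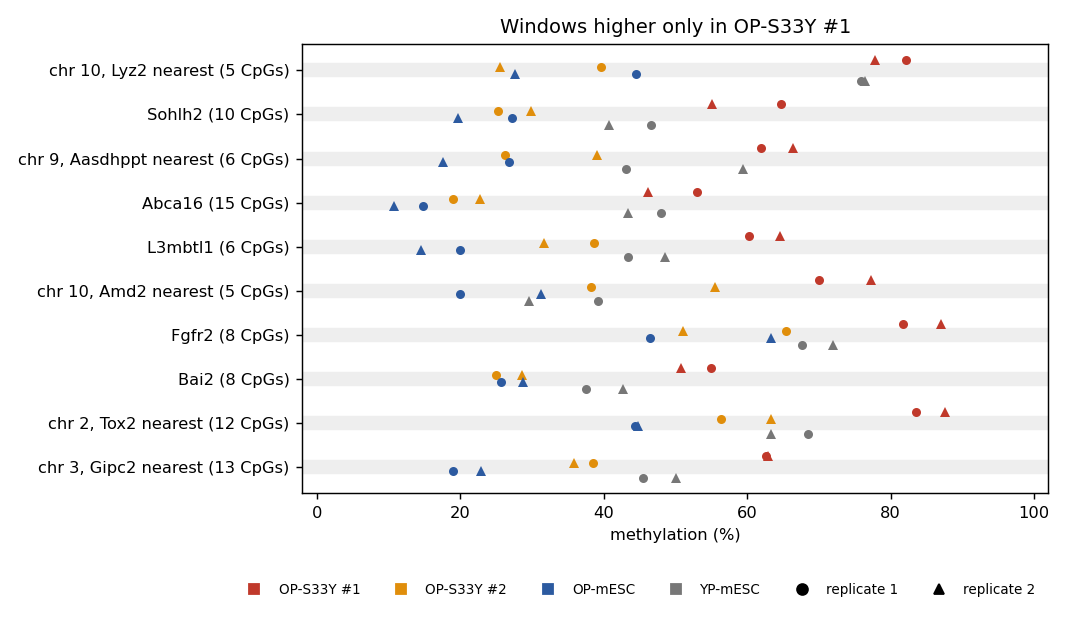
Methylation (%) of the 10 windows higher only in OP-S33Y #1, each on its own line with its gene (or chromosome and nearest coding gene) and its CpGs; points are single libraries of OP-S33Y #1 (red), OP-S33Y #2 (orange), OP-mESC (blue) and YP-mESC (grey), circles replicate 1 and triangles replicate 2. The OP-S33Y #1 libraries lie to the right of all OP-S33Y #2 and OP-mESC libraries.

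Lower methylation in both clones was rare. Of the 4 windows, Repin1, a zinc finger gene (chr6:48547517-48547588, coding exon, 8 CpGs), had 13.7% and 12.5% in OP-S33Y #1, 10.1% and 5.14% in OP-S33Y #2 and 60.6% and 54.6% in OP-mESC. YP-mESC was between the clones and OP-mESC there, with 42.5% and 29.0%. Tiam1, an activator of Rac (chr16:89955018-89955185, intron), had means of 17.2% and 17.5% against 46.8%. Lrrc8d, a subunit of volume-regulated anion channels (chr5:106161278-106161330, UTR), had 24.2% and 17.7% against 53.2%. Ak1, the gene of an adenylate kinase (chr2:32486432-32486556, promoter and intron), had 43.0% and 29.5% against 68.7%, and its difference in OP-S33Y #1 was under 25 points without OP-S33Y #1 replicate 2 (-24.9) or OP-mESC replicate 2 (-23.8). Adjusted p-values were between 2.09e-30 and 4.27e-06.

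The fixed gene lists were read over all windows that overlapped a listed gene or its promoter, beside the shares of all windows called (1.7% in OP-S33Y #1, 0.617% in OP-S33Y #2). Of 153 windows over 60 Wnt pathway genes, of 39 over 19 pluripotency genes and of 37 over 15 genes of DNA methylation and imprint protection, edgeR and limma called 0 in either clone. At an unadjusted p under 0.05 and any size, 32, 6 and 6 of these windows were higher in OP-S33Y #1, and 3, 2 and 2 were lower. In OP-S33Y #2, 37, 10 and 4 were higher and 0, 0 and 2 were lower. At the same threshold, 5605 of all 21062 windows were higher and 632 lower in OP-S33Y #1, and 4582 were higher and 320 lower in OP-S33Y #2. Differences in the Wnt list ran from -6.19 to 20.5 points in OP-S33Y #1 and from -14.2 to 15.0 in OP-S33Y #2. For DNA methylation and imprint protection they ran from -0.92 to 23.3 and from -15.8 to 17.3 points. In the pluripotency list they ran from -1.02 to 8.70 and from -0.82 to 12.1 points. A locus at Tet3 that the study chose on these OP-mESC libraries had 36.7 and 25.5 points over its 2 common CpGs. The medians of the 3 lists were between 0.0 and 0.50 points, near the 0.24 and 0.35 of all windows. The 4 windows over the cell type markers held no call in either clone by edgeR or limma, and 3 of them were higher at an unadjusted p under 0.05 in each, beside the same counts over all windows.

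The germline and lineage lists held the called windows. Those in Sohlh2, Spo11 and Nefm overlap loci that the study chose as lower in these OP-mESC libraries. Their calls are therefore in part built in. Of 24 windows over 20 germline and meiosis genes, 3 were higher in OP-S33Y #1 and 1 in OP-S33Y #2, with medians of 8.48 and 7.90 points. They were the Sohlh2 windows described above, 1 of them higher in both clones, and a window in Spo11, the gene of the enzyme that makes meiotic DNA breaks (chr2:172805502-172805558). Spo11 had 59.6% and 66.1% in OP-S33Y #1, 57.5% and 36.9% in OP-S33Y #2 and 32.8% and 39.1% in OP-mESC, so that OP-S33Y #2 and OP-mESC overlapped. Its call in OP-S33Y #1 was lost without OP-S33Y #1 replicate 2 (23.7 points) or OP-mESC replicate 1 (23.8). The lineage list holds a structural gene, Nefm, beside regulators. Of 100 windows over 36 genes of this list, 4 were higher in OP-S33Y #1 and 2 in OP-S33Y #2. The windows higher in both were the pair at Nefm, the second of which (chr14:68742827-68743009, promoter, coding exon and UTR, 16 CpGs) had 66.5% and 61.2%, 38.4% and 35.2%, and 5.82% and 6.51% in the order given above. OP-S33Y #1 exceeded OP-S33Y #2 by 27.0 points there, 1 of the 2 windows at which the clones were called both higher than OP-mESC and different. Introns of the heart regulators Gata4 (chr14:63887570-63887652) and Tbx5 (chr5:120316687-120316773) were higher in OP-S33Y #1 by 41.1 and 27.7 points. OP-S33Y #2 was 19.3 and 5.11 points above OP-mESC at them. The clones were not called different for size alone, at 21.8 and 22.6 points (edgeR, adjusted p = 5.11e-04 and 0.00118). At Gata4 the libraries had 81.9% and 81.3%, 69.0% and 50.6%, and 53.9% and 27.1% in the order given above. Those of OP-S33Y #2 and OP-mESC overlapped. The Gata4 difference in OP-S33Y #1 was 54.6 points without OP-mESC replicate 1 and 27.7 without OP-mESC replicate 2. Tbx5 lost its call without OP-S33Y #1 replicate 2 (23.4 points).

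The study lists 107 loci as lower in OP-mESC than in YP-mESC, and 97 of them had at least 2 common CpGs. These loci were chosen on the same OP-mESC libraries, so a higher value in the clones is in part built in and is not separate evidence. Both clones were more than 25 points above OP-mESC at 17, OP-S33Y #1 alone at 24, OP-S33Y #2 alone at 1 and neither at 55. The median difference was 21.3 points in OP-S33Y #1 and 15.1 in OP-S33Y #2, and at 85 loci all 4 clone libraries were above both OP-mESC libraries. All 3 loci listed as higher in OP-mESC had a value, with differences of -43.9 and -48.6 points at Repin1, -15.6 and -12.1 at Nkx2-1, and 6.78 and -0.76 at Gm11846, which thus did not share one direction.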

How the data were processed

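RRBS of 16 libraries in 8 conditions was deposited, and 6 libraries in 3 groups of 2 were compared here, with YP-mESC and the control shRNA mESCs beside them. Groups and replicate numbers came from the titles. Per the labels and methods, the authors made libraries with a NuGEN RRBS kit, processed reads with CASAVA 1.8.2 and Trim Galore 0.2.8 and aligned them to mm9 with Bismark 0.7.9. The authors deposited, for each cytosine of a CpG with at least 10 reads, the count of covering reads and the percent with a methylated cytosine, per replicate and without normalization. Handling of duplicate reads is not given in the sources used here. Neighbouring CpGs can share reads, so summed reads are not independent.

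The reads of the 2 strands were summed per CpG, and CpGs with 10 or more reads in all 6 libraries were kept. Single CpGs were tested with a likelihood-ratio chi-square of a binomial model divided by a shared overdispersion (1.20). Windows of at least 5 CpGs, and ICRs with at least 2, were tested with edgeR 4.0.16 on methylated and unmethylated counts, with 1 coefficient per library for coverage. Its fit gave a single spread for all windows (common dispersion 0.00981), so the p-value of a window leans on the others. P-values were adjusted by Benjamini-Hochberg over all CpGs, or over all windows and ICRs, of each contrast. A call needed both an adjusted p under 0.05 and group means more than 25 points apart, where the level of a window or ICR is the mean of its CpG percentages. Genes and promoters (1 kb before a start) came from GENCODE vM1 on the same build as the files, and sequences from that genome. The tests were checked on simulated reads. With 10 reads, 1 read is worth 10 points of a CpG's level.

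The text names all ICRs with a value, the 12 windows higher in both clones with the largest smaller difference, 8 per clone higher only there by the difference between the clones, 6 lower in both, and every called window of the gene lists. The clones, lists and loci were chosen with earlier results of these data known. Same-numbered libraries did not deviate together (r = 0.0012 to 0.024 over 186629 CpGs with 20 or more reads), so no replicate block was used. Alternatives were 20 reads, strands kept apart, no CpGs of extreme coverage, levels from summed reads, Fisher's exact test, limma 3.58.1, a replicate block, 40 points, 10 CpGs per window, 5 changed CpGs per region, each replicate left out, and the CpGs of 5 libraries without OP-mESC replicate 2. The scripts ran under R 4.3.3 and Python 3.11.15 with scipy 1.17.1 and numpy 2.4.6.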

Additional observations from a re-analysis of the deposited data

Results flagged for a closer look

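By the test of the clones against each other (edgeR, adjusted p under 0.05, difference over 25 points), OP-S33Y #1 was higher than OP-S33Y #2 at 24 windows and lower at 0. The 10 windows given here, and 1 ICR, are those at which a single clone was also called higher than OP-mESC. Of the other windows, 2 were called higher in both clones, among them Nefm with 27.0 points. OP-S33Y #1 exceeded OP-S33Y #2 by 47.4 points in the intergenic window near Lyz2 on chromosome 10, 32.3 at the start of Sohlh2, 31.5 at chr9:4260437-4260482, 28.7 in Abca16, 27.2 in L3mbtl1, 26.8 at chr10:35030323-35030347, 26.1 in Fgfr2, 26.0 in Bai2, 25.7 at chr2:162976889-162977015 and 25.6 at chr3:151755666-151755960. At the Gnas ICR the difference was -42.4 points, with OP-S33Y #2 the higher. The Kcnq1ot1 ICR also differed between the clones by over 25 points, but both were called higher than OP-mESC there. The part of the history of each clone in these differences was not tested, since each clone is a single line.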

How the results depend on the processing

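At least 20 reads left 29 windows higher in both clones, 0 lower and 3 higher only in OP-S33Y #1. Fewer windows could be tested at this depth, so these counts are not rates. Of 186629 CpGs with at least 20 reads, 980 were higher in both clones and 54 lower, against 1569 and 103 of 373932 in the main set. There were 3 regions, and the mean ICR difference in OP-S33Y #2 was 29.5 points. A difference over 40 points left 449 CpGs higher and 62 lower, 19 windows higher, 1 lower, 1 only in OP-S33Y #1, and 2 regions. At least 10 CpGs per window left 13 windows higher, 0 lower and 4 only in OP-S33Y #1, again out of fewer windows tested. On the CpGs of 5 libraries without OP-mESC replicate 2, where more windows could be tested, 210 windows were higher in both clones, 22 only in OP-S33Y #1 and 2 only in OP-S33Y #2 (in Gnas and Eftud1), with 16 regions and mean ICR differences of 26.3 and 29.9 points. At least 5 changed CpGs gave 57 regions. Over the ICRs other than Gnas and Kcnq1ot1, chosen after seeing the data, the mean difference in OP-S33Y #2 was 23.6 points. Leaving out each replicate in turn gave 599 to 1307 CpGs higher in both clones, the fewest without OP-S33Y #2 replicate 1, and 9 to 16 windows only in OP-S33Y #1, the most without OP-S33Y #1 replicate 1. A lone library was taken to vary like those of the other groups. The cause was not tested.

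With a replicate block, 1295 CpGs were higher and 93 lower in both clones, and the windows higher in both, lower in both, higher only in OP-S33Y #1 and only in OP-S33Y #2 numbered 106, 4, 10 and 0, as without it. limma gave 106, 4, 11 and 0. ICRs higher in both clones numbered 3 to 5 over the alternatives run for them. Read-weighted, the difference of the 4 clone libraries was 5.18 points. Of 241 values of the 29 named windows under alternatives, 223 kept their call, 18 lost it and 0 reversed. The lost calls were in L3mbtl1, Fgfr2, Bai2, Ak1, Spo11, Tbx5 and chr10:35030323-35030347. With at least 20 reads only 9 of the 29 windows had a value, and 3 of these lost their call. The remaining windows could not be assessed at that depth. Each group had 2 libraries, and the values at Kcnq1ot1, Impact and Gnas rest on 3 to 5 common CpGs.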
